A study of Mus musculus with 6 samples.

Results

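The sterol regulatory element binding protein (SREBP) machinery was examined through the 7 genes that encode its core: the factors Srebf1 and Srebf2, the escort Scap, the retention proteins Insig1 and Insig2, and the proteases Mbtps1 and Mbtps2. The genes were taken by symbol, and all 7 were among the 17463 genes measured and among the 11277 that passed the filter on low counts. SREBPs are made as precursors in the membrane of the endoplasmic reticulum (ER), where SCAP, which senses cholesterol, holds them. When membrane cholesterol is plentiful, SCAP binds to INSIG and the complex stays in the ER. When cholesterol is scarce, COPII vesicles carry the complex to the Golgi, where the site-1 and site-2 proteases release the part of SREBP that enters the nucleus and switches on genes of sterol and fatty acid synthesis. Srebf2 and Insig1 are themselves targets of this pathway, while Srebf1 also responds to the oxysterol receptor LXR. Erythroblasts make and take up cholesterol to build membrane, and this demand declines as they mature.

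The cells were TER119-negative erythroblasts from fetal liver of C57BL/6J mice at embryonic day 14.5, kept for 30 h in medium with erythropoietin, which drives their maturation. Control cultures received no cholesterol (called untreated in the labels and vehicle-treated in the paper) and the others 40 µM cholesterol, with 3 samples in each group, numbered 1 to 3. According to the study's methods, cells that had gained TER119, a surface protein of maturing erythroid cells, were sorted before RNA was extracted. Polyadenylated RNA was sequenced, so that messenger RNA and neither protein nor cleavage of SREBP was measured. The legend of the study's figure that includes these data speaks of independent experiments for the whole figure, but the labels and methods do not say whether these RNA samples came from separate litters or cultures, so p-values measure the spread between these samples, which may be technical.

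Total counts lay between 19826797 and 20061702 per sample, so that depth was even and 3 counts equalled 0.15 CPM (counts per gene scaled to a common library size). All 13 erythroid markers were detected, with a summed level of 159710 to 202410 CPM in control and 144710 to 185190 CPM with cholesterol. Markers of other blood cells were lower but uneven. The 9 granulocyte markers summed to 69.4, 258 and 650 CPM in controls 1 to 3 and to 41.4, 112 and 277 CPM in cholesterol-treated samples 1 to 3, and the 9 macrophage markers to 18.3, 43.4 and 127 CPM against 14.2, 20.6 and 60.9 CPM. The 6 mast cell markers, of which 5 were detected, summed to at most 18.4 CPM in control and 2.93 CPM with cholesterol, the 6 megakaryocyte markers to 81.6 to 91.7 CPM against 79.2 to 88.6 CPM, and the 7 hepatocyte markers to 124 to 342 CPM against 85.9 to 293 CPM. Control sample 3 stood apart, with the highest sum of all 6 marker lists.

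Of the 7 genes, Srebf2 and Insig1 are shown with their promoters, since the levels of these 2 genes separated the groups most widely. The stretches come from RefSeq promoter windows (GRCm38.p6) and end before the first annotated transcript start of the gene. The Srebf2 stretch is chr15:82147019-82147180 and the Insig1 stretch is chr5:28071162-28071362, both on the + strand and written 5′ to 3′. Capitals mark matches to the motifs searched on both strands: the sterol regulatory element bound by SREBP, the CCAAT box bound by NF-Y, and the E-box.
Srebf2: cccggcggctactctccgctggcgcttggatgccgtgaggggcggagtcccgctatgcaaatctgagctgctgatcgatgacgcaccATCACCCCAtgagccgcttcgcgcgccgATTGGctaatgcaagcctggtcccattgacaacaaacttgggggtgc
Insig1: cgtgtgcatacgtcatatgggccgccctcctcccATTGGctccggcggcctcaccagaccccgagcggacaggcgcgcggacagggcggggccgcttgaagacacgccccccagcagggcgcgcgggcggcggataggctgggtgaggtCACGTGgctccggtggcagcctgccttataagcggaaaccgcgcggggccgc

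In the Srebf2 stretch, ATCACCCCA begins 163 bases before the RefSeq start (chr15:82147106-82147114). It matches ATCACNCCA, a sterol regulatory element without its last base, a form chosen after the sequence had been read. This form occurred in 0.712% of the 32851 windows of 250 bases before a RefSeq start, and Srebf2 was the 1 gene of the 7 that held it. The full element, which ends in a further C, occurred in 0.192% of windows and in none of the 12 windows of the 7 genes. The 7 genes hold 12 windows between them, so a share of windows and a count of genes are unlike measures. The CCAAT box, here read from the other strand as ATTGG, occurred in 33.8% of windows and in those of Srebf2, Insig1, Srebf1 and Insig2. The E-box CACGTG occurred in 6.02% of windows and in those of Insig1 (chr5:28071311-28071316) and Scap (chr9:110333316-110333321). A gene can have several RefSeq starts, and only the printed stretches were cut before the first transcript start. The Scap E-box and the CCAAT matches of Srebf1 lie inside the spans given below for these genes, as do some of those of Insig2. The marked matches in the printed stretches do not overlap each other. These matches describe letters, and binding was not measured here.

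With cholesterol, the messages of Srebf2 and Insig1 were lower than in any control sample. Mean levels were 2.52 times lower for Srebf2 and 3.38 times lower for Insig1. Mbtps1 was 1.13 times higher with cholesterol, again without overlap between the groups, whereas Srebf1, Scap, Insig2 and Mbtps2 overlapped. Genes whose groups did not overlap made up 7.99% of all genes tested, of which those lower with cholesterol were 4.28% and those higher 3.71%. In edgeR's quasi-likelihood test with adjustment over all genes, 0 of the 7 genes passed an adjusted p of 0.05, and 1 gene of 11277 (0.00887%) did. At an unadjusted p under 0.05, 2 of the 7 were lower and 1 was higher, against 1.92% and 0.718% of all genes (2.63% together). DESeq2's Wald test called 2 of the 7, Srebf2 and Insig1, both lower, and 0.275% of all genes (0.248% lower and 0.0266% higher). When edgeR was fitted with the sample number as a block, 1 of the 7 was called, Mbtps1, which was higher, and 6.85% of all genes (5.2% lower and 1.65% higher). In bulk RNA, fewer cells of a type and less message per cell cannot be told apart.

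**Figure D1:**
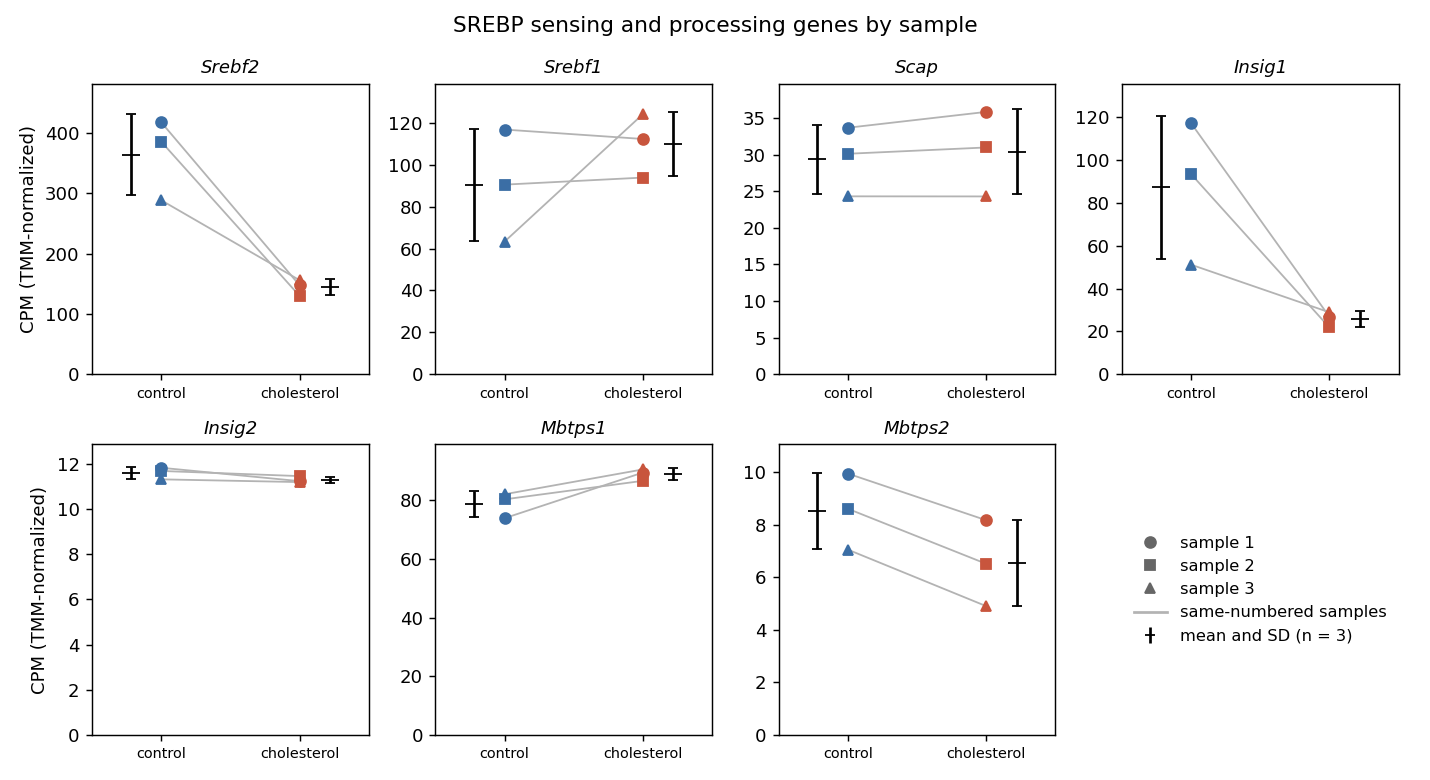
Level of each SREBP machinery gene by sample, in CPM after TMM normalization on axes that start at 0. Points are samples, shaped by sample number, grey lines join same-numbered samples, and bars give the mean and SD (n = 3). Srebf2 and Insig1 lie lower in all 3 cholesterol samples than in any control sample, Mbtps1 lies slightly higher, and the other 4 genes overlap.

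Srebf2 encodes SREBP2, the factor that mainly drives genes of cholesterol synthesis and uptake. Its gene lies at chr15:82147269-82205379. Srebf2 was measured at 418, 386 and 289 CPM in controls 1 to 3 and at 148, 130 and 156 CPM in cholesterol-treated samples 1 to 3. All cholesterol samples lay far below the lowest control, and control sample 3 was lower than the other two. The mean went from 364 ± 67.4 CPM in control to 144 ± 13.3 CPM with cholesterol (SD, n = 3 in each group). The log2 fold change was −1.33 (SE 0.15, 95% interval −1.70 to −0.96) with a p of 9.48e-05 and an adjusted p of 0.534 in edgeR's test. Within same-numbered pairs 1 to 3, the log2 difference was −1.50, −1.57 and −0.89. The smallest difference was thus in pair 3, which holds the control sample with the most granulocyte and macrophage message, and the part of those cells in the result was not tested. Without control sample 3, which differs from the others in more than these markers, the log2 fold change was −1.48 and the adjusted p 0.0201. DESeq2 gave an adjusted p of 3.84e-13 on all samples. EdgeR with the sample number as a block gave a log2 fold change of −1.32 (SE 0.21) and an adjusted p of 0.133. Over all 16 alternative settings the adjusted p ran from 4.20e-209, in the fit with the block and without both samples numbered 3, to 1.0. That fit holds 2 pairs, too few to measure the spread of Srebf2 between samples. The blocked fits without the samples numbered 1 and 2 also hold 2 pairs and gave adjusted p-values of 0.308 and 0.435. Why these fits differ was not tested.

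Srebf1 encodes SREBP1, whose forms favour genes of fatty acid synthesis, and lies at chr11:60199084-60224186. Srebf1 was measured at 117, 90.6 and 63.4 CPM in controls 1 to 3 and at 112, 94.0 and 124 CPM in cholesterol-treated samples 1 to 3. The groups overlapped, and control sample 3 was the lowest of the 6. The mean was 90.3 ± 26.8 CPM in control and 110 ± 15.3 CPM with cholesterol (SD, n = 3). The log2 fold change was 0.29 (SE 0.23, adjusted p = 1.0 in edgeR), and its 95% interval of −0.26 to 0.84 does not include a decrease as large as that of Srebf2. The pairs did not share a direction, with log2 differences of −0.06, 0.05 and 0.97. With the block and without both samples numbered 3, the log2 fold change was −0.0054. The counts are per gene and do not separate the SREBP1 forms that start at different promoters. The exons of Srebf1 share 109 of 5634 bases with those of Rai1 on the opposite strand, and the libraries are not stated to keep strand.

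Scap encodes the escort that senses cholesterol and carries SREBP. The gene lies at chr9:110333288-110384949. Scap was measured at 33.7, 30.1 and 24.3 CPM in controls 1 to 3 and at 35.8, 31.0 and 24.3 CPM in cholesterol-treated samples 1 to 3. Same-numbered samples were almost equal, and the level differed more between numbers than between groups. Cholesterol gave a log2 fold change of 0.05 (SE 0.18, 95% interval −0.39 to 0.48, adjusted p = 1.0 in edgeR), and it turned to −0.07 without control sample 3 and to −0.087 without cholesterol sample 1. Of its 7443 exonic bases, 985 are shared with 5830462I19Rik on the opposite strand, a transcript that was not analysed here.

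The INSIG genes parted. Insig1 (chr5:28071412-28078662) encodes the retention protein whose own gene SREBPs switch on. Insig1 was measured at 117, 93.5 and 51.1 CPM in controls 1 to 3 and at 26.8, 21.8 and 28.9 CPM in cholesterol-treated samples 1 to 3. The cholesterol samples lay close together and below every control, while the controls spread widely. The mean was 87.3 ± 33.5 CPM in control and 25.8 ± 3.65 CPM with cholesterol (SD, n = 3). The log2 fold change was −1.76 (SE 0.31, 95% interval −2.50 to −1.02) with a p of 0.00102 and an adjusted p of 1.0 in edgeR. Pairs 1 and 2 differed by −2.12 and −2.10 on the log2 scale and pair 3 by −0.82. Without control sample 3 the log2 fold change was −2.03, with an adjusted p of 0.0258, and DESeq2 gave an adjusted p of 6.48e-06 on all samples. EdgeR with the sample number as a block gave −1.71 (SE 0.40) and an adjusted p of 0.232. Over the 16 alternative settings the adjusted p ran from 8.71e-226, again with the block and without both samples numbered 3, to 1.0. That fit of 2 pairs has the same limit as for Srebf2. The blocked fits without the samples numbered 1 and 2 gave 0.535 and 0.625.

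Insig2 (chr1:121304353-121332662) encodes the retention protein that is not driven by SREBP. It was the steadiest of the 7 genes. Insig2 was measured at 11.8, 11.7 and 11.3 CPM in controls 1 to 3 and at 11.2, 11.5 and 11.2 CPM in cholesterol-treated samples 1 to 3. The coefficient of variation was 2.28% in control and 1.26% with cholesterol, below the 6.63% that counting error alone would give at its mean count. For Insig2 the log2 fold change was −0.04 (SE 0.09, adjusted p = 1.0 in edgeR), and its 95% interval of −0.26 to 0.18 bounds a decrease well short of that of Insig1.

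Mbtps1 (chr8:119508151-119558864) encodes the site-1 protease, which makes the first cut in SREBP and also cuts other ER membrane proteins such as ATF6. Mbtps1 was measured at 73.9, 80.3 and 82.0 CPM in controls 1 to 3 and at 89.4, 86.6 and 90.5 CPM in cholesterol-treated samples 1 to 3. Every cholesterol sample was above every control sample, by a small margin. The mean was 78.7 ± 4.30 CPM in control and 88.8 ± 2.01 CPM with cholesterol (SD, n = 3). The log2 fold change was 0.17 (SE 0.07, 95% interval 0.02 to 0.33) with a p of 0.0364 and an adjusted p of 1.0 in edgeR. With the sample number as a block, the log2 fold change was 0.18 (SE 0.05) and the adjusted p 0.0369, in a fit that called 6.85% of all genes. That call was lost when both samples numbered 1 or both numbered 2 were left out of the blocked fit. The log2 fold change was then 0.13 (adjusted p 0.296) and 0.21 (0.0765). The pairs differed by 0.28, 0.11 and 0.14, so that 3 of 3 were higher, as were 19.9% of all genes tested. Over the 16 alternative settings the adjusted p ran from 0.0139 to 1.0.

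Mbtps2 (chrX:157547822-157598715) encodes the site-2 protease, which makes the second cut within the membrane. Mbtps2 was measured at 9.96, 8.62 and 7.06 CPM in controls 1 to 3 and at 8.18, 6.52 and 4.91 CPM in cholesterol-treated samples 1 to 3. The groups overlapped, but each cholesterol sample lay below the control sample of the same number, with log2 differences of −0.28, −0.40 and −0.52. Of all genes tested, 20.1% were lower in 3 of 3 pairs. The log2 fold change was −0.39 (SE 0.23, 95% interval −0.95 to 0.17, adjusted p = 1.0 in edgeR), and with the block the adjusted p was 0.0531. Mbtps2 shares 2867 of its 10002 exonic bases with Yy2, which lies on the same strand and was counted at 16 to 23 reads per sample, and its own estimated counts were not whole in 5 of 6 samples. How reads were divided between these 2 genes was not tested.

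**Figure D2:**
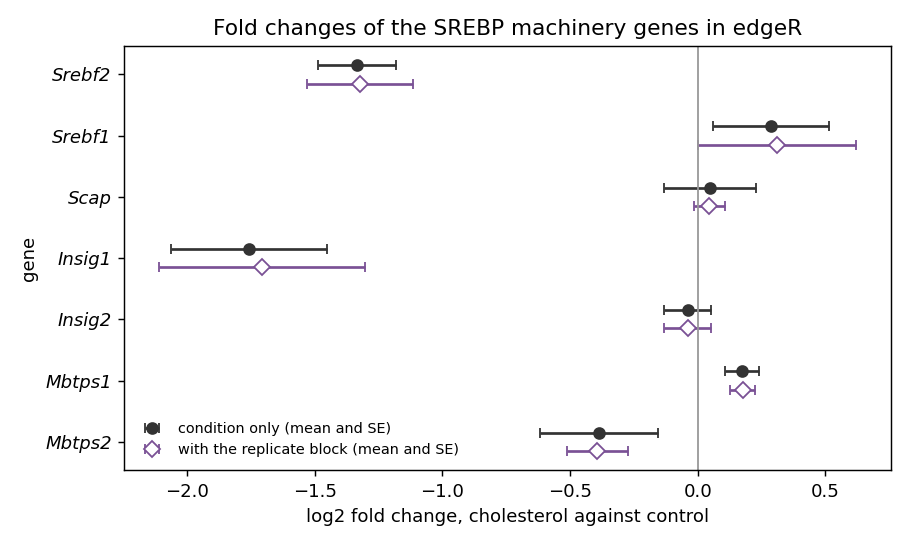
Log2 fold change of each SREBP machinery gene, cholesterol against control, from edgeR with condition alone (filled circles) and with the sample number as a block (open diamonds). Bars are 1 SE and the vertical line marks no difference. Srebf2 (−1.33) and Insig1 (−1.76) lie far to the left, Mbtps1 (0.17) lies slightly to the right, and the bars of Scap and Insig2 cross the line in both fits.

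Levels of different genes were compared per transcript length, in FPKM. In control, Srebf2 was the most abundant of the 7 at 74.0 ± 14.8 FPKM (SD, n = 3), above every sample of Insig1 at 32.2 ± 12.6 FPKM. Srebf1 followed at 20.5 ± 6.28 and Mbtps1 at 18.1 ± 1.02 FPKM. The ranges over samples of Insig1 and Srebf1 overlapped, as did those of Srebf1 and Mbtps1. Within each control sample Insig1 was above Srebf1, while Srebf1 and Mbtps1 did not keep 1 order. Below them came Scap at 6.83 ± 1.19, Insig2 at 4.6 ± 0.212 and Mbtps2 at 1.72 ± 0.315 FPKM, without overlap between neighbours. With cholesterol, the range of Srebf2 at 30.0 ± 2.47 FPKM overlapped that of Srebf1 at 25.6 ± 3.14 FPKM. Insig1 at 9.67 ± 1.24 FPKM, now below Mbtps1 at 20.9 ± 0.384 FPKM, overlapped Scap at 7.22 ± 1.5 FPKM. Within each cholesterol sample, however, Srebf2 was above Srebf1 and Insig1 above Scap. Insig2 at 4.54 ± 0.105 and Mbtps2 at 1.35 ± 0.355 FPKM stayed at the bottom of the order.

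Within each group, the balance between the factors varied less than their levels, and between the groups it differed. The ratio of Srebf2 to Srebf1 FPKM was 3.18, 3.82 and 4.08 in controls 1 to 3 and 1.18, 1.23 and 1.12 in cholesterol-treated samples 1 to 3. The ratio in every cholesterol sample was near 1, and the drop was present in all 3 pairs, with log2 differences of −1.44, −1.64 and −1.86. Srebf2 made up 76.1%, 79.3% and 80.3% of the summed FPKM of Srebf1 and Srebf2 in control, and 54.0%, 55.1% and 52.9% with cholesterol. The mean log2 difference in the ratio was −1.65 (SE 0.11). Within control, the ratio had a coefficient of variation of 12.6%, against 29.7% for Srebf1 and 18.5% for Srebf2 in CPM, and within cholesterol one of 4.39%, against 13.9% and 9.23%.

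The ratio of Insig1 to Insig2 FPKM was 9.12, 7.43 and 4.19 in controls 1 to 3 and 2.24, 1.77 and 2.38 in cholesterol-treated samples 1 to 3. Insig1 remained the more abundant INSIG message in every sample, but by less with cholesterol, and the mean log2 difference was −1.64 (SE 0.36). Set against the escort, Insig1 and Insig2 together amounted to 6.12, 5.55 and 4.11 times the FPKM of Scap in control and to 1.71, 1.75 and 2.66 times with cholesterol. That difference was −1.38 on the log2 scale (SE 0.27) and was smallest in pair 3, at −0.63. For each of the 3 ratios the groups did not overlap, and the exact two-sided permutation test gave p = 0.1, the smallest that 3 against 3 samples allow, and 0.1 after Benjamini-Hochberg adjustment over the 3 ratios. These ratios concern messages and not the proteins that bind each other.

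**Figure D3:**
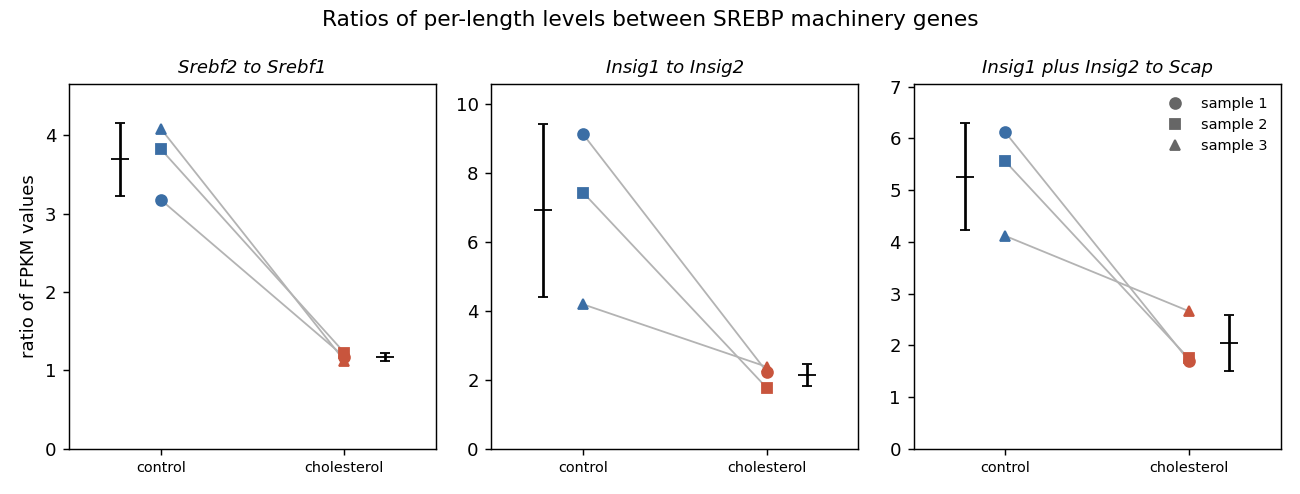
Ratios of FPKM values by sample: Srebf2 to Srebf1, Insig1 to Insig2, and Insig1 plus Insig2 to Scap, on linear axes that start at 0. Points are samples, shaped by sample number, grey lines join same-numbered samples, and bars give the mean and SD (n = 3). In each panel all 3 cholesterol samples lie below all 3 control samples, and the ratio of Srebf2 to Srebf1 lies between 1.12 and 1.23 with cholesterol.

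The targets that SREBPs switch on were read beside the machinery. The list of sterol synthesis and uptake genes held 24 genes, all tested, and all 24 had a log2 fold change below 0, with a median of −1.07 (range −3.20 to −0.36) against 0.01 over all genes tested and −0.04 over the 7 machinery genes. In 17 of the 24, every cholesterol sample was below every control, as in 4.28% of all genes. In edgeR 0 of the 24 passed an adjusted p of 0.05, 21 were lower at an unadjusted p under 0.05 (1.92% of all genes), and 12 were called lower with the block and 12 by DESeq2, against 5.2% and 0.248% of all genes called lower by these last 2 tests. Hsd17b7, an enzyme of late sterol synthesis, was measured at 35.9, 33 and 24.0 CPM in control and 15.8, 12.4 and 12 CPM with cholesterol, a log2 fold change of −1.21 (SE 0.19, adjusted p = 0.864 in edgeR, 1.51e-08 with the block and 2.19e-05 in DESeq2). Hmgcs1, which makes HMG-CoA, was measured at 61.4, 47.6 and 25.6 CPM in control and 11.7, 10.9 and 9.66 CPM with cholesterol, a log2 fold change of −2.06 (SE 0.32, adjusted p = 0.864 in edgeR, 0.0504 with the block and 2.75e-07 in DESeq2). As in Srebf2 and Insig1, control sample 3 was the lowest of the controls in both of these genes.

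The fatty acid synthesis targets were mixed. Of 16 genes listed, 14 were tested, 5 with a log2 fold change above 0 and 9 below, with a median of −0.23 (range −1.02 to 0.72), and Acacb and Thrsp did not pass the filter. In edgeR 0 of the 14 were called and 3 were lower at an unadjusted p under 0.05 (1.92% of all genes), while 5 were called lower with the block (5.2% of all genes) and 1 by DESeq2 (0.248%). The 3 with the smallest p were Fads1, a fatty acid desaturase (log2 fold change −0.48, SE 0.11), Elovl6, a fatty acid elongase (−1.02, SE 0.36), and Acss2, which makes acetyl-CoA from acetate (−0.20, SE 0.08), each with an adjusted p of 1.0 in edgeR. The blocked fit of edgeR gave adjusted p-values of 9.43e-05 for Elovl6, 0.138 for Fads1 and 0.0832 for Acss2, and DESeq2 gave 0.912, 0.0419 and 1.0 in the same order. The groups overlapped for Elovl6 and not for the other two. The groups did not overlap in 2 of the 14, lower in both, against 4.28% of all genes.

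Among proteins that act on the machinery in the ER, Rnf145 stood out. It encodes an ER ubiquitin ligase that acts on SCAP and whose gene LXR switches on. Rnf145 was measured at 112, 113 and 111 CPM in controls 1 to 3 and at 132, 140 and 148 CPM in cholesterol-treated samples 1 to 3, with little spread and no overlap. Its log2 fold change was 0.32 (SE 0.06, adjusted p = 1.0 in edgeR, 2.07e-04 with the block and 0.00779 in DESeq2). The rest of the 19 genes of this list lay between −0.10 and 0.14, with a list median of −0.01 and overlapping groups, where 7.99% of all genes did not overlap. These include Faf2, a factor in the removal of ubiquitinated ER proteins (0.08, SE 0.07). In edgeR 0 of the 19 were called (0.00887% of all genes) and 1, Rnf145, was higher at an unadjusted p under 0.05 (0.718% of all genes). It was also the 1 gene of the list called with the block (6.85% of all genes) and by DESeq2 (0.275%).

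The genes of the transport and cleavage steps around the 7 had medians near 0. Of the COPII coat and assembly genes, 13 of 14 were tested (Sec16b was not), with a median log2 fold change of 0.01 (range −0.32 to 0.11) and overlapping groups in all 13, where 7.99% of all genes did not overlap. Sec23b, an inner coat subunit, had a log2 fold change of −0.10 (SE 0.08), and the cargo adaptors Sec24d and Sec24b had −0.32 (SE 0.35) and 0.08 (SE 0.14). Of 8 other substrates of the site-1 and site-2 proteases 5 were tested, with a median of −0.02. Atf6b, Creb3 and Atf6, membrane-bound stress response factors, had log2 fold changes of −0.03 (SE 0.09), −0.07 (SE 0.22) and 0.03 (SE 0.13). In these 2 lists 0 genes were called by edgeR (0.00887% of all genes), with the block (6.85%) or by DESeq2 (0.275%), and 0 had an unadjusted p under 0.05 in edgeR (2.63%). In lists this short, so few calls are near the share over all genes.

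The 12 genes for LXR, its partner RXR and the nuclear partners of SREBP had a median log2 fold change of 0.02 (range −0.54 to 0.14), and 0 of them were called by edgeR (0.00887% of all genes), with the block (6.85%) or by DESeq2 (0.275%), with 0 at an unadjusted p under 0.05 in edgeR (2.63%). Rxrb, a partner of LXR, was higher without overlap (0.14, SE 0.06), as were 3.71% of all genes, while Sp1, which binds beside SREBP (−0.09, SE 0.06), and Med15, a Mediator subunit that SREBP contacts (0.06, SE 0.06), overlapped. The LXR targets Abcg1 and Abca1 encode cholesterol exporters. Abcg1 was measured at 6.93, 4.36 and 6.39 CPM in control and 101, 93.9 and 99.0 CPM with cholesterol, a log2 fold change of 4.05 (SE 0.18, adjusted p = 0.00292 in edgeR), and was the 1 gene of 11277 that edgeR called. Abca1 was measured at 0.354, 1.19 and 3.37 CPM in control and 2.02, 2.03 and 6.24 CPM with cholesterol, so that its groups overlapped, and its adjusted p was 1.0 without the block and 0.0174 with it.

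**Figure D4:**
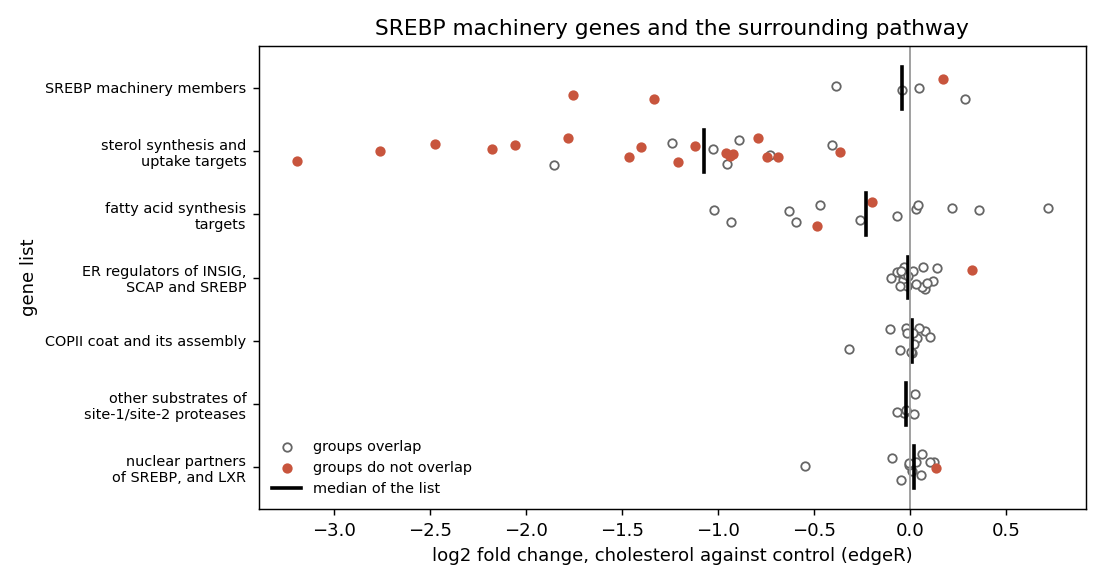
Log2 fold change in edgeR, cholesterol against control, of every tested gene of the SREBP machinery and of 6 lists around it. Each point is a gene, filled where the groups do not overlap, offset vertically for legibility, and black bars give the median of each list. The sterol synthesis and uptake genes all lie left of 0 with a median of −1.07, while the medians of the ER regulators, COPII, other substrates and nuclear partner lists lie between −0.02 and 0.02.

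The genes whose profile over the 6 samples was most like that of Srebf2, Insig1 or Srebf1 were ranked by the root mean square difference of mean-centred log2 CPM, among 8327 genes with a mean of at least 5 CPM. Among those closest to Srebf2, whose own profile spanned 1.69 on this scale, were Hsd17b7 (0.155), Fdft1 (0.224), Sqle (0.272) and Rdh11 (0.285). Among those closest to Insig1, which spanned 2.42, were Fdps (0.189), Hmgcs1 (0.222), Gm38481 (0.240) and Sc5d (0.295). Closest to Srebf1, which spanned 0.97, were Fsbp (0.162), Bend3 (0.163), Usp30 (0.171), Wdr34 (0.174) and Tigd2 (0.176). The nearest distance to Srebf1 was about as small as that to Srebf2, but it was a larger part of the narrower span of Srebf1. These distances describe 6 samples and carry no test.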

How the data were processed

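RNA-seq of 3 control and 3 cholesterol samples was analysed, grouped by the sample labels. The authors deposited expected counts, that is, reads estimated per gene without normalization, of which 27.9% to 29.5% per sample were not whole. The normalized values that the authors deposited beside them carry no unit and were taken as FPKM, reads scaled by gene length and library size, since count, total and value imply nearly the same length for a gene in every sample. The submitters' processing notes list HISAT2 2.0.4, Bowtie2 2.2.5, RSEM 1.2.12 and DESeq2 1.4.5, with no roles or order, and the build GRCm38.p6. Coordinates are from RefSeq on that build and exon overlaps from GENCODE.

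Expected counts were rounded, because the planned test takes whole counts. The test was that of edgeR 4.0.16, run in R 4.3.3 (TMM, filterByExpr with at least 10 counts in enough samples and 15 in total, robust quasi-likelihood test, condition alone, Benjamini-Hochberg adjustment over 11277 genes, threshold 0.05). Standard errors were derived from the F statistic, and intervals are 95%. The sample numbers come from the labels, which do not say what they mark. Same-numbered samples deviated together from their group means, with correlations over genes of 0.729, 0.348 and 0.825 for numbers 1 to 3, against −0.795 to 0.346 between different numbers. The highest of the latter, control 1 with cholesterol 2, was about that of number 2, so number 2 is not singled out. Since all 3 exceeded 0.1, the number was taken to pair samples and entered as a block in an alternative fit. Other alternatives were DESeq2 1.42.0, its size factors in edgeR, no filter, at least 10 counts in every sample, limma 3.58.1 on log2(FPKM + 1) and log2(FPKM + 0.1), and each sample or pair left out. Ratios were tested by exact permutation over samples. No 2 libraries were copies (chi-square per degree of freedom at least 8.51). The scripts were tested on simulated data with 200 changed genes and no effect of the sample number. At an adjusted p under 0.05, edgeR recovered 141 of them with 9 false calls. With the block it recovered 133 with 18 false calls, and DESeq2 recovered 159 with 42.

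Genes named are the 7 of the machinery, the 3 with the smallest p in each list, the 5 most like Srebf1, Srebf2 and Insig1, and Abcg1 and Abca1. Some genes that this rule names are not reported here. Genes named for not passing the filter or for overlapping exons lie outside this rule. The genes, lists and tests were chosen with earlier results of these data known. P-values refer to 3 samples per group, and counting limits cover counting error only. Motifs were searched in the 250 bases before each RefSeq start.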

Additional observations from a re-analysis of the deposited data

How the results depend on the processing

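Directions of Srebf2, Insig1, Insig2, Mbtps1 and Mbtps2 held under all 16 alternatives each, and those of the 3 ratios under all 9. Srebf1 turned to −0.0054 with the block and without both samples numbered 3. Scap turned to −0.07 without control replicate 3 and to −0.087 without cholesterol replicate 1. Neither passed the threshold in any of these settings. Srebf2 and Insig1 passed the threshold in DESeq2 (log2 fold changes −1.34 and −1.76), without control replicate 3 (−1.48 and −2.03) and in the replicate block without both samples numbered 3 (−1.54 and −2.12). Mbtps1 passed with the replicate block (0.18) and with that block without the samples numbered 3 (0.19), and not with that block without the samples numbered 1 or 2. The blocked fit without the samples numbered 3 holds 2 pairs, too few to measure the spread of a gene between samples. The blocked fits without the samples numbered 1 or 2 also hold 2 pairs and called 0 of the 7. The cause of these differences was not tested. The paired fit with the block changed no other call among the 7 genes.

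Leaving out 1 sample at a time gave log2 fold changes of −1.48 to −1.22 for Srebf2, −2.03 to −1.48 for Insig1, 0.13 to 0.21 for Mbtps1, −0.58 to −0.21 for Mbtps2, −0.06 to −0.02 for Insig2, −0.09 to 0.19 for Scap and 0.09 to 0.52 for Srebf1. It gave 0 to 2 called genes of the 7, 1 to 8 of all genes and 0 to 4 of the sterol genes, each highest without control replicate 3, and 2 of all genes without cholesterol replicate 3.

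Calls at an adjusted p under 0.05 in DESeq2 were 2 of the 7, 31 of all genes, 12 sterol, 1 fatty acid and 1 ER regulator gene. With the replicate block they were 1, 772, 12, 5 and 1. With the block and without both samples numbered 1, 2 and 3 in turn, they were 821, 296 and 726 of all genes, 17, 5 and 22 sterol genes, 5, 3 and 8 fatty acid genes and 1 ER regulator gene each time, and 3 of the 7 without number 3. COPII, other substrate and nuclear partner genes had 0 calls in all 16 alternatives. Depth limited Mbtps2 and Insig2 most, with a counting error of 8.16% and 6.63% of the mean count.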
